A study of Homo sapiens with 12 samples.

Results

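The genes described here encode the enzymes that write, copy and erase DNA methylation, with their closest partners: DNMT1, UHRF1, DNMT3A, DNMT3B, DNMT3L, TET1, TET2, TET3 and TDG. These 9 genes were chosen by name, out of 19821 RefSeq protein-coding genes placed on chromosomes 1 to 22 and X, and each was followed over its gene body and the 200 kb on either side. The measurement was the position of nucleolus-associated domains (NADs), the chromosomal DNA that sediments with nucleoli, in H9 cells, an established line of human embryonic stem cells. Naive H9 cells were grown in RSeT medium and primed H9 cells in mTeSR medium, with no treatment, and 3 nucleolar and 3 whole-cell DNA libraries were made from each state, 12 libraries in all. Both states come from the same single line, and the identity of the cells cannot be checked from lists of regions.

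In mammals DNA methylation is placed mostly on cytosines of CpG dinucleotides. DNMT1 copies the pattern to the new strand after replication, guided by UHRF1, which binds half-methylated CpG sites. DNMT3A and DNMT3B set new methylation, helped by DNMT3L, which has no catalytic activity of its own. The TET dioxygenases oxidise methylcytosine stepwise, and the glycosylase TDG cuts out the most oxidised forms so that repair restores plain cytosine. Naive pluripotent cells are known for low methylation across the genome and primed cells for high methylation. NADs tend to hold silent chromatin. Neither methylation nor transcription was measured in these data.

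Each state is represented by 1 deposited list of regions, so a covered share has no error across cultures, no test compares the states, and the read depth behind the lists is unknown. The naive list held 61750 regions with a mean length of 18.97 kb, and the primed list 29994 regions with a mean of 44.2 kb. Region limits lie on a 10 kb grid, apart from the ends of 8 naive and 12 primed regions, each the last of its chromosome, so 1 bin of 10 kb is the finest difference that can be seen. In these lists a higher naive body share was found for 24.2% of coding genes and a higher primed share for 56.2%.

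The bodies of 8 of the 9 genes touched naive regions and those of 6 touched primed regions. Among all coding genes 76.8% touched the naive and 81.8% the primed list (for all RefSeq genes, 61.9% in the naive and 67.9% in the primed list), and with 9 genes neither count is read as a departure from these shares. DNMT1, UHRF1, DNMT3A, DNMT3B, TET1 and TET3 were touched by both lists (65.2% of coding genes), TET2 and TDG by the naive list only (11.6%), and DNMT3L by neither (6.57%). None of the 9 was touched by the primed list only, which held for 16.6% of coding genes. By length, it held for 17 of 3350 coding genes of 100 kb or more and for 509 of 6458 of 25 to 100 kb. Under 25 kb it held for 2765 of 10013, so its absence among mostly longer members is not read as particular to them. Long genes touch a region more easily, and the 4 members longer than 100 kb belong to a class in which 99.3% of coding genes touched the naive and 85.9% the primed list. For coding genes of 25 to 100 kb, the class of DNMT1, UHRF1 and DNMT3B, these shares were 88.9% in the naive and 82.7% in the primed list, and for those under 25 kb, the class of DNMT3L and TDG, 61.5% in the naive and 79.9% in the primed list. At least 50% of the body was covered in 2 members in the naive list (TDG and TET1) and in 4 in the primed list (DNMT1, UHRF1, DNMT3B and TET3), against 34.7% of coding genes in the naive and 61.2% in the primed list. The whole body was covered in 0 members in the naive list and in 3 in the primed list, against 12.6% of coding genes in the naive and 41.8% in the primed list. By length, the naive list covered the whole body in 23.8% of coding genes under 25 kb, 1.77% of 25 to 100 kb and 0.0597% of 100 kb or more. In the primed list these shares were 60.7%, 27.8% and 12.5%. Neither count is therefore read as a departure.

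**Figure D1:**
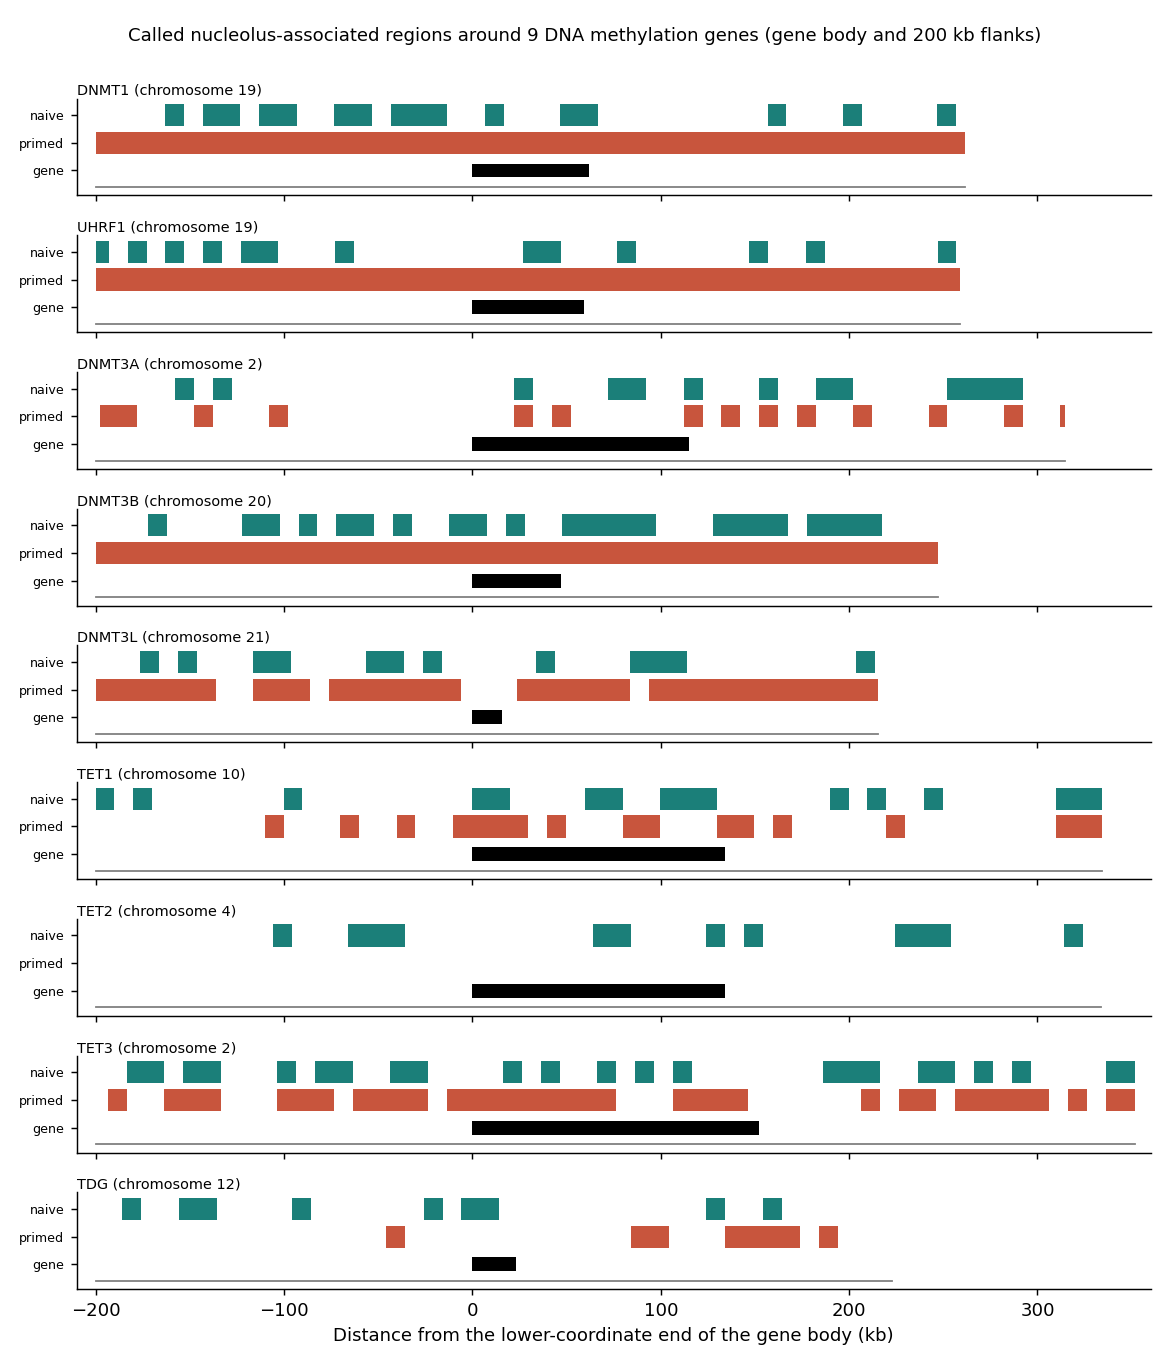
Regions of the naive list (upper row) and the primed list (middle row) around each gene, with the gene body in black and the grey line marking the window of body and 200 kb flanks, against distance in kb from the lower-coordinate end of the body. The windows of DNMT1, UHRF1 and DNMT3B are filled by 1 primed region each and crossed by separate short naive regions, whereas the TET2 window holds naive regions only.

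The starts of the genes are shown next because they decide whether a promoter itself lay in a region. RefSeq (GRCh38.p14, the same assembly as the hg38 coordinates of the lists) gave 19 promoter windows for 8 of the 9 genes, each running from 250 bases before to 50 after an annotated start. Windows of one gene partly overlap and share their bins. DNMT3L was not among the matched genes. The windows printed below are 1 for each kind of placement, plus the outer and inner starts of DNMT3A and the CpG-poor inner start of DNMT3B. They are written 5′ to 3′ with every CpG in capitals.

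The DNMT1 start lay in both lists.
DNMT1, chr19:10194904-10195203, minus strand: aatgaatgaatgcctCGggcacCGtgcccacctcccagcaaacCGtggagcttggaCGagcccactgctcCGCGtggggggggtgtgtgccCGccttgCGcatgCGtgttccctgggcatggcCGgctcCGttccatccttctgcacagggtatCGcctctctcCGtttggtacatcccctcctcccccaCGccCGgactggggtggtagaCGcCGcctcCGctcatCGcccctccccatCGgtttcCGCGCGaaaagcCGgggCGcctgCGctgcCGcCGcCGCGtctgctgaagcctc
The inner and the outer DNMT3A starts, both in both lists, follow.
DNMT3A inner start, chr2:25252082-25252381, minus strand: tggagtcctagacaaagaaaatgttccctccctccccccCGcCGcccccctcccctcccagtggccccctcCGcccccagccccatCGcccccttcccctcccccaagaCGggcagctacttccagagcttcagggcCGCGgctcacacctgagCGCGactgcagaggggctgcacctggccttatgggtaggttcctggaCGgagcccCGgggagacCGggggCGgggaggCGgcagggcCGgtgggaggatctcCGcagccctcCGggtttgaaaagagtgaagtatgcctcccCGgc
DNMT3A outer start, chr2:25342541-25342840, minus strand: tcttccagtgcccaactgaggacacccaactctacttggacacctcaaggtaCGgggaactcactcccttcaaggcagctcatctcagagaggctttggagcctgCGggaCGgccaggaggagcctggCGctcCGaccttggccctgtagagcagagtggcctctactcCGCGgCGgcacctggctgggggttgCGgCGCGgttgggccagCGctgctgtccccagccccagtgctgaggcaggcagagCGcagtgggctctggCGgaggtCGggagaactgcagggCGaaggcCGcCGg
The printed UHRF1 window and the matched DNMT3B window, which is an inner start of that gene, lay in the primed list only.
UHRF1, chr19:4909251-4909550, plus strand: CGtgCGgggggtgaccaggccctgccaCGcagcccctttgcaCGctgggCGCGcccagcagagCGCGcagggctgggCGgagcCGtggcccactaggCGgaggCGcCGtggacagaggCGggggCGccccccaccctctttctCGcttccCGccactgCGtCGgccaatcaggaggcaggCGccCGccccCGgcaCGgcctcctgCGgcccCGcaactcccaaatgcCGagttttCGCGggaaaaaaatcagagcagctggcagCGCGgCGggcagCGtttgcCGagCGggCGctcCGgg
DNMT3B inner start, chr20:32779602-32779901, plus strand: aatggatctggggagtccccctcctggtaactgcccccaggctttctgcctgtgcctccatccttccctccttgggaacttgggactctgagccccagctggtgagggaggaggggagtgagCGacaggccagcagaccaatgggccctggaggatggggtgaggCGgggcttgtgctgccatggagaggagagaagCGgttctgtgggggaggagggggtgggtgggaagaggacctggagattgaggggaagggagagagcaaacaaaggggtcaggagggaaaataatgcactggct
The TDG start lay in the naive list only.
TDG, chr12:103965622-103965921, plus strand: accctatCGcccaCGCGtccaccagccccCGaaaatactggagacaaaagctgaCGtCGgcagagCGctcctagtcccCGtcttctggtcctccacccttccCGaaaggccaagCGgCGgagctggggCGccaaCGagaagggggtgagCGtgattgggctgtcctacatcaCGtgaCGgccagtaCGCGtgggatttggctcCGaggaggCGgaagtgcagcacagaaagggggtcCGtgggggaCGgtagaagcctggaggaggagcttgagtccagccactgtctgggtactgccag
The printed TET2 start lay in neither list, as did the other annotated start of that gene.
TET2, chr4:105145625-105145924, plus strand: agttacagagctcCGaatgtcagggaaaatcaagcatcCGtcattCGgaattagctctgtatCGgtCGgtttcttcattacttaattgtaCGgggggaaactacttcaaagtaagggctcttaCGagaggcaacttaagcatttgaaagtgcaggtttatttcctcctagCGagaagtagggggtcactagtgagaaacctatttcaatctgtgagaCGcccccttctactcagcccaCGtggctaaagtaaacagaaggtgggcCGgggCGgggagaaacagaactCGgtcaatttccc

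Over all 19 windows, 9 lay in both lists, 1 in the naive list only, 7 in the primed list only and 2 in neither. Among the 22132 promoter windows of coding genes the shares were 31% in both, 11.2% in naive only, 34.3% in primed only and 23.5% in neither, and 42.2% touched the naive and 65.3% the primed list in all. All 9 windows in both lists belong to DNMT1, DNMT3A, TET1 and TET3, and most of them to DNMT3A, whose windows share bins. Counted by gene, 4 had a window in both lists, 1 in the naive list only, 4 in the primed list only and 1 in neither. TET1 and TET3 stand in the first and the third of these groups. The window counts are therefore not read as a departure from the shares of all coding promoters. The CpG dinucleotide, searched as the letters CG, which read the same on both strands, occurred 30 times in the DNMT1 window, 36 times in the printed UHRF1 window, 22 times in the TDG window, 13 times in the printed TET2 window and 3 times in the DNMT3B window. The TET2 window that is not printed, at 105146626 to 105146925, held 35 CpG. At least 20 CpG were found in 12 of the 19 windows and in 52.9% of all coding promoter windows, and at least 1 CpG in 98.05% of all coding promoter windows. The median was 26 in the members' windows and 21 in all of them. Overlapping windows of DNMT3A, UHRF1 and TET1 count some CpG more than once, so these CpG values are not 19 separate ones. Across coding genes the median was 18 in windows placed in the naive list only, 23 in the primed list only, 22 in both and 18 in neither.

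The maintenance genes DNMT1 and UHRF1 both lie on chromosome 19, which as a whole had 51.6% of its analysed sequence in naive and 97.3% in primed regions. DNMT1 (gene ID 1786, chromosome 19, 10133346 to 10194953) had 40.5% of its 61.6 kb body in naive regions and 100% in primed regions. The naive cover came from 2 regions, a single bin at 10140001 to 10150000 inside the gene and a 20 kb region at 10180001 to 10200000 that contains the start. The primed cover came from 1 region of 5.33 Mb (5670001 to 11000000) that holds 153 coding genes, and 12 of the 29994 primed regions were longer. Naive regions filled 49.2% of that stretch. Of all primed regions 51.3% were a single bin, so a rank by region length, here and below, counts regions and not the genes they hold.

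UHRF1 (gene ID 29128, chromosome 19, 4903080 to 4962154) had 33.9% of its body in naive regions and 100% in primed regions. A single naive region of 20 kb at 4930001 to 4950000 lay inside the gene, and the printed start window was 20.45 kb away from it. The primed region around it was shorter than that of DNMT1, 620 kb with 8 coding genes, among them the histone demethylase gene KDM4B, and 24.2% of it was covered by naive regions. In the flanks DNMT1 had 33.8% in naive and 100% in primed regions, and UHRF1 had 26.7% in naive and 100% in primed regions. Both naive values fall below the chromosome 19 median of 46.9% for flanks of coding genes, while the primed values equal its median of 100%. Of the 6 coding neighbours of UHRF1 within 200 kb, 5 touched naive and 6 primed regions. PLIN3, a lipid droplet gene on the lower side, had 5.66% of its body in naive and 100% in primed regions, and KDM4B on the other side 18.2% in naive and 100% in primed regions. ARRDC5, which overlaps UHRF1, had 0% in naive and 100% in primed regions.

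The naive flanks of DNMT1 were uneven. On the side after the gene's end, 50% was in naive regions, against 17.5% on the side before its start, where the next naive region began 95.05 kb from the gene. Of its 20 coding neighbours within 200 kb, 13 touched naive and all 20 touched primed regions. EIF3G, a translation initiation factor gene on the lower side, had 100% of its body in both lists. S1PR2, a sphingosine-phosphate receptor gene on the other side, had 0% in naive and 100% in primed regions.

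The genes for new methylation differed among themselves. DNMT3A (gene ID 1788, chromosome 2, 25227874 to 25342590) was sparsely covered in both lists, with 28.4% of its 114.7 kb body in naive and 19.7% in primed regions. Each list had 3 regions there. The single bins at 25250001 to 25260000 and at 25340001 to 25350000 were called in both lists, and all 6 annotated start windows of the gene lie in these bins: the inner starts in the first, the outer starts in the second. The remaining regions were different, a naive one of 20 kb at 25300001 to 25320000 and a primed one of 10 kb at 25270001 to 25280000. DNMT3A flanks had 24.4% in naive and 27.5% in primed regions, near the chromosome 2 medians of 29.8% for the naive and 28.8% for the primed list. Its lower-side neighbour POMC, the precursor gene of several pituitary hormones, was touched by neither list. DTNB, a dystrobrevin gene on the other side, had 30.4% in naive and 33.7% in primed regions, and of 3 coding neighbours 2 touched each list.

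DNMT3B (gene ID 1789, chromosome 20, 32762385 to 32809356) had 37.5% of its 46.97 kb body in naive regions and 100% in primed regions. The primed region spanned 2.27 Mb (31150001 to 33420000) with 44 coding genes, and 43 primed regions were longer. The naive cover came from a 20 kb region at 32750001 to 32770000, which holds the outer end of the body and 7.62 kb of it, and from the single bin at 32780001 to 32790000. The outer end of the body thus lay in both lists. The matched inner start window ended 0.099 kb short of that single bin, a distance far below the 10 kb grid, so its placement in the primed list only is not resolved. DNMT3B flanks had the highest naive share of the 9 genes, 53.1%, against 100% in primed regions. Of its 7 coding neighbours, 6 touched naive and 7 primed regions. COMMD7, 18.9 kb away on the lower side, had 42.4% in naive and 100% in primed regions. MAPRE1, a microtubule end-binding protein gene 10.4 kb away, had 100% of its body in both lists.

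DNMT3L (gene ID 29947, chromosome 21, 44246339 to 44261897) was the member that no region touched, with 0% of its 15.6 kb body in either list. Chromosome 21 had 69.2% of its analysed sequence in naive and 92.1% in primed regions, and its coding genes had median body shares of 63.01% in naive and 100% in primed regions. The primed list left out 8 of the 238 coding genes of chromosome 21 (3.36%), and the same number was left out by both lists together. The gene sat in a naive gap of 50 kb (44230001 to 44280000) and, inside it, in a primed gap of 30 kb (44240001 to 44270000). Gaps of at least this length made up 16.9% of all naive and 35.7% of all primed gaps, so neither is long for its list. The flanks had 30% in naive and 86.4% in primed regions. All 9 of its coding neighbours were touched by regions, 8 by naive and 9 by primed ones. On its sides stand ICOSLG, a costimulatory ligand gene with 41.7% in naive and 96.1% in primed regions, and AIRE, a regulator of thymic self-antigen expression, with 32.3% in naive and 100% in primed regions. When gaps up to 50 kb were merged, DNMT3L was at 100% in both lists.

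**Figure D2:**
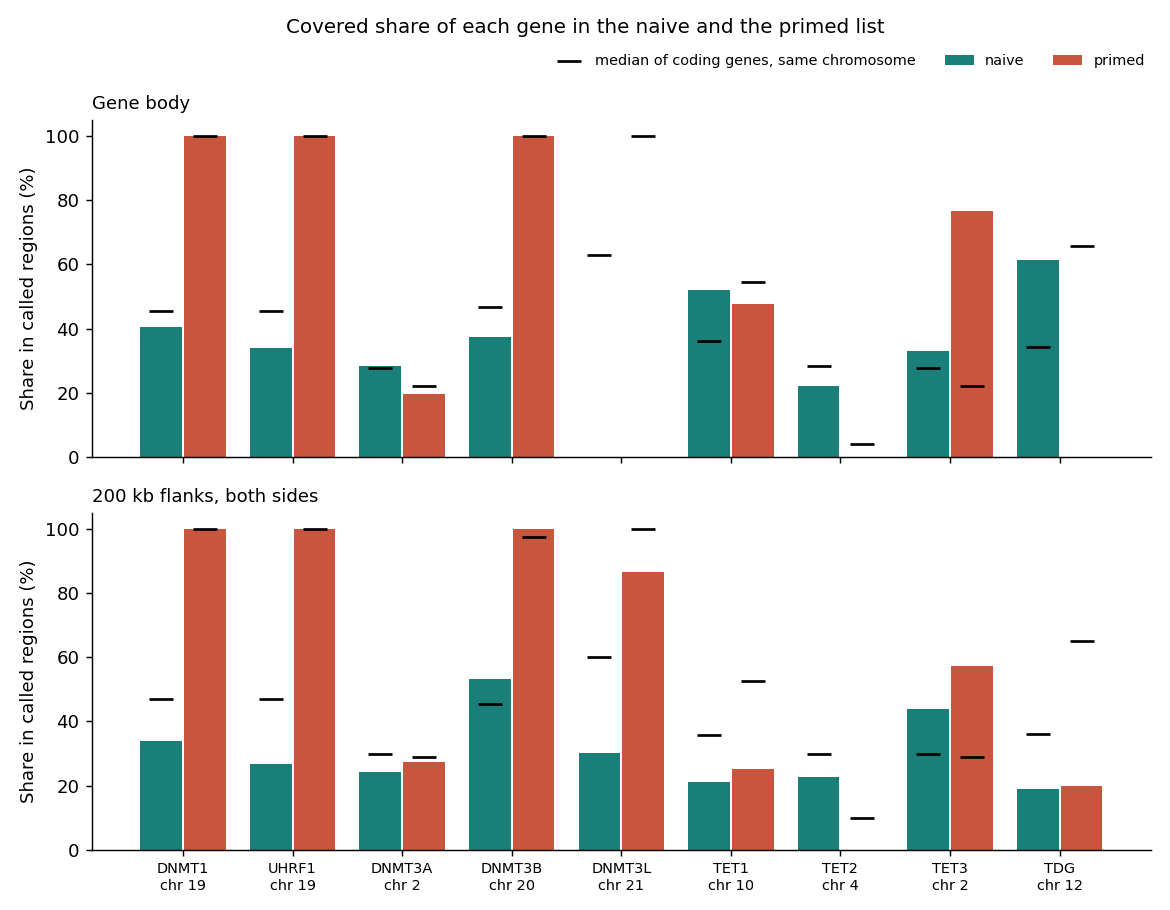
Share of each gene body (top) and of its 200 kb flanks (bottom) in naive and in primed regions, in percent, with black dashes for the median of all coding genes on the same chromosome. DNMT1, UHRF1 and DNMT3B reach 100% in the primed list, TDG and TET2 have a naive bar only in the body, and DNMT3L has no bar in the body but 86.4% of its flanks in the primed list.

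Among the erasers, the 3 TET genes followed 3 different patterns. TET1 (gene ID 80312, chromosome 10, 68560337 to 68694487), the family member known for high expression in pluripotent cells, had nearly equal shares, 51.9% of its 134.2 kb body in naive and 47.8% in primed regions. The covered sequence was mostly not the same. Of the 14 bins that the body touches, 5 were in the naive list only, 5 in the primed list only, 2 in both and 2 in neither. Along the gene the lists alternated: naive regions at 68620001 to 68640000 and 68660001 to 68690000 were followed directly by primed regions at 68640001 to 68660000 and 68690001 to 68710000. The outermost start lay in both lists, and the inner starts in the primed list only. The outermost window begins at 68560087, just inside a naive region that starts at 68560001. The inner windows begin at 68600018 and 68600224, just inside a primed bin that starts at 68600001. These distances are far below the 10 kb grid, so the naive placement of the outermost start and the primed placement of the inner starts are not resolved. TET1 flanks had 21.1% in naive and 25.1% in primed regions, below the chromosome 10 medians of 35.8% for the naive and 52.5% for the primed list. Of its 5 coding neighbours, 4 touched naive and 5 primed regions. SLC25A16, a mitochondrial carrier gene, had 0% in naive and 35.4% in primed regions, and CCAR1, a cell cycle and apoptosis regulator gene, 28.1% in naive and 26.4% in primed regions.

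TET2 (gene ID 54790, chromosome 4, 105145875 to 105279803), a gene often mutated in blood cancers, had 22.3% of its body in naive regions and 0% in primed regions. The naive cover consisted of a 20 kb region at 105210001 to 105230000 and a single bin at 105270001 to 105280000. On chromosome 4, 31.4% of coding genes were touched by the naive list only. No primed region lay in the TET2 flanks either, where the naive share was 22.5%. An empty primed window of this kind was found for 3.97% of all coding genes and for 18.5% of those on chromosome 4, the chromosome with 33.6% of its sequence in naive and 18.9% in primed regions. The pyrophosphatase gene PPA2, 89.3 kb away, showed the same placement, with 38.1% in naive and 0% in primed regions, and the uncharacterised gene LOC124900868, which overlaps TET2, was touched by neither list. The nearest primed region was 630.2 kb away, and a distance of at least 500 kb was found for 1.93% of coding genes. TET2 sat in a primed gap of 2.51 Mb (103400001 to 105910000), and 49 of the 29971 primed gaps were longer. Naive regions covered 29.1% of that stretch in 51 separate pieces. CXXC4, which encodes a DNA-binding partner of TET2 and is thought to have split from an ancestral TET2 gene, lies in the same gap, with 62.4% of its body in naive and 0% in primed regions.

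TET3 (gene ID 200424, chromosome 2, 73983631 to 74135498), the oxidase that acts on the paternal genome in the zygote in mice, had 32.9% of its 151.9 kb body in naive regions and 76.6% in primed regions. The naive cover was 5 single bins spread over the gene, and the primed cover was 2 regions, 90 kb at 73970001 to 74060000 and 40 kb at 74090001 to 74130000. Of its 16 bins, 4 were in both lists, 1 in the naive list only, 8 in the primed list only and 3 in neither. Its naive body share was 5.31 percentage points above the chromosome 2 median of 27.6%, and its primed share 54.6 points above the median of 22%. DNMT3A, on the same chromosome, was 2.31 points below that primed median. TET3 flanks had 43.9% in naive and 57.3% in primed regions, and of its 8 coding neighbours 7 touched naive and 6 primed regions. DGUOK, a mitochondrial deoxyguanosine kinase gene on the lower side, had 59.1% in naive and 100% in primed regions. MOB1A, a Hippo pathway gene on the other side, had 33.7% in naive and 0% in primed regions, and BOLA3, which overlaps the end of the TET3 body, was touched by neither list.

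TDG (gene ID 6996, chromosome 12, 103965872 to 103988874) had 61.4% of its 23 kb body in naive regions, the highest naive share of the 9, and 0% in primed regions. On chromosome 12, 11% of coding genes were touched by the naive list only. A single naive region of 20 kb (103960001 to 103980000) held the TDG start and most of the gene, together with part of UQCC6, a mitochondrial complex III assembly gene 0.165 kb away on the lower side. UQCC6 had 36.8% of its body in naive and 0% in primed regions. GLT8D2, a glycosyltransferase-like gene 0.113 kb away on the other side, had 0% in naive and 19.1% in primed regions. Of its 7 coding neighbours, 6 touched naive and 3 primed regions. The primed gap around TDG measured 120 kb (103930001 to 104050000). TDG flanks had 18.97% in naive and 20% in primed regions, against chromosome 12 medians of 36.1% for the naive and 65% for the primed list.

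Ordered by naive body share, the genes ran from TDG (61.4%) through TET1, DNMT1, DNMT3B, UHRF1, TET3 and DNMT3A to TET2 (22.3%) and DNMT3L (0%). Ordered by primed share, DNMT1, UHRF1 and DNMT3B came first at 100%, then TET3, TET1 and DNMT3A (19.7%), with TET2, TDG and DNMT3L at 0%. With 1 list per state, no neighbours in these orders can be told apart beyond a spread. The median body share over the 9 genes was 33.9% in naive and 47.8% in primed regions, against 35.6% in naive and 75.8% in primed regions over all coding genes. A higher naive share was found in 4 genes and a higher primed share in 4, and DNMT3L was at 0% in both lists. Over all coding genes a higher naive share was found for 24.2% and a higher primed share for 56.2%. By length, the naive share was higher for 45.0% of coding genes of 100 kb or more. It was higher for 29.5% of those of 25 to 100 kb and for 13.9% of those under 25 kb. The TET1 body had 7 covered bins in each list, and the DNMT3A body 4 in the naive and 3 in the primed list. The direction in these genes is thus at the limit of the grid, and the even split is not resolved. The coding genes of chromosomes 19, 20 and 21 had a median primed body share of 100%, and those of chromosomes 2, 4, 10 and 12 a median of 37.3%. DNMT1, UHRF1 and DNMT3B stood at the median of their chromosomes, DNMT3L (0%, against 100% on chromosome 21) and TDG (0%, against 65.7% on chromosome 12) below theirs, and TET3 (76.6%, against 22% on chromosome 2) above its own.

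**Figure D3:**
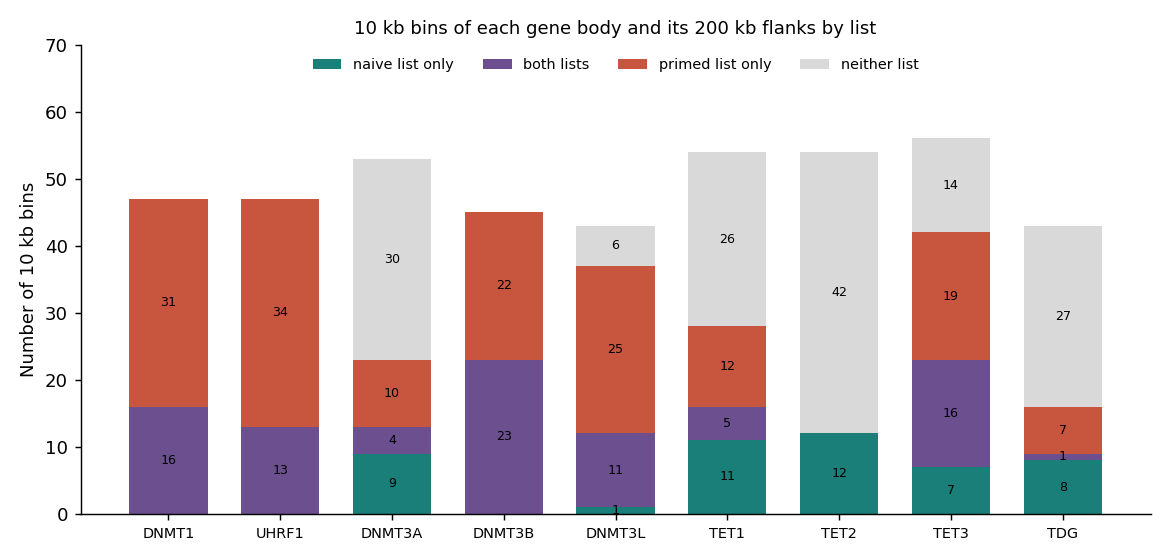
Number of 10 kb bins touched by each gene body and its 200 kb flanks, split into bins in the naive list only, in both lists, in the primed list only and in neither. In the windows of DNMT1, UHRF1 and DNMT3B no bin was naive only or in neither, and the TET2 window had 12 naive-only bins and 42 in neither.

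In the flanks the primed share was higher than the naive share in 8 of the 9 genes, and TET2 was the exception. Among all coding genes the naive flank share was higher for 25.9% and the primed flank share for 73.8%, so the count of 8 is not read as particular to these genes. The difference, naive minus primed in percentage points, was small for DNMT3A (-3.15), TET1 (-3.96) and TDG (-1.03), and a single bin is 2.5 points of both flanks together. For UHRF1 (-73.3), DNMT1 (-66.2), DNMT3L (-56.4) and DNMT3B (-46.9) it was large. Median flank shares were 26.7% in naive and 57.3% in primed regions, against 37.5% in naive and 67.5% in primed regions over all coding genes. Pooled over the 9 windows, 442 bins in all, 137 were in naive regions, 249 in primed regions and 89 in both. The shared bins were thus 65.0% of the naive and 35.7% of the primed bins. Every bin in the windows of DNMT1, UHRF1 and DNMT3B was primed, so their 16, 13 and 23 naive bins were shared of necessity. The pooled shares rest largely on these windows, and no such share over all coding genes is given here.

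Cover close to the genes was compared with cover farther out. Within 50 kb of the bodies the median share was 24.3% in naive and 45.8% in primed regions, against 37.7% in naive and 69.5% in primed regions around all coding genes. At 50 to 100 kb it was 29.8% in naive and 70% in primed regions, against 37.4% in naive and 67.9% in primed regions around all coding genes. The primed median of the 9 genes was thus below that of all coding genes nearest the bodies and slightly above it in this step. At 100 to 150 kb it was 34.1% in naive and 65.5% in primed regions, against 37.8% in naive and 69.1% in primed regions around all coding genes. At 150 to 200 kb it was 30.6% in naive and 53.6% in primed regions, against 38.3% in naive and 69.2% in primed regions around all coding genes. The ranges over the 9 genes were wide at every distance, from 0.336% to 71.7% in naive and from 0% to 100% in primed regions within 50 kb.

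**Figure D4:**
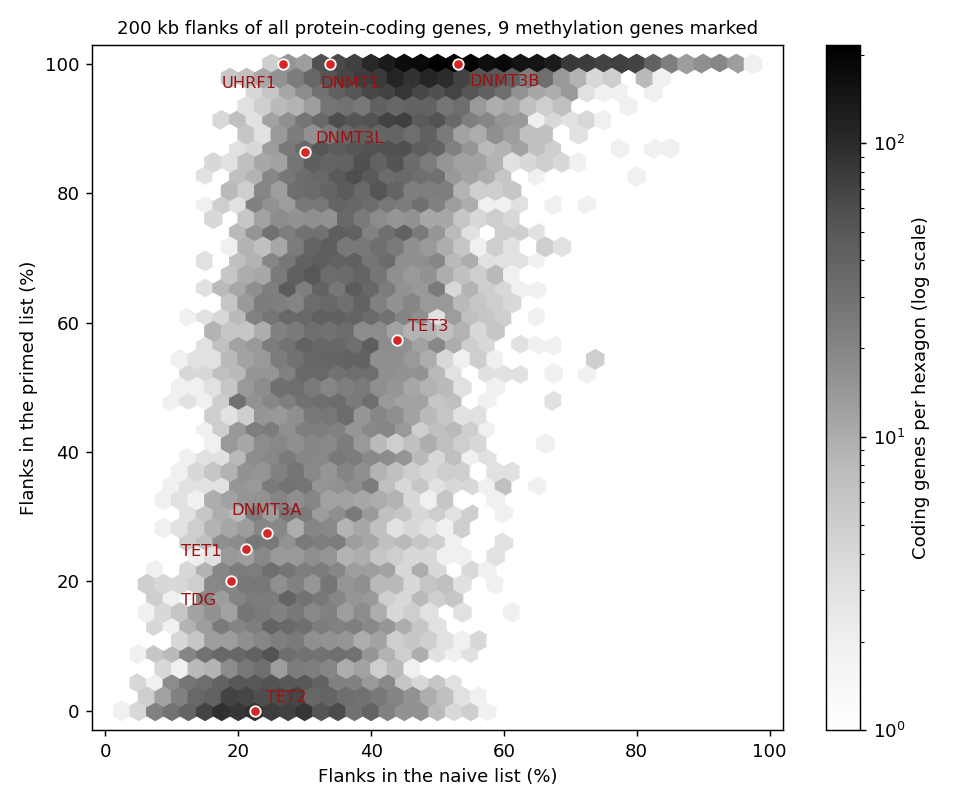
Share of the 200 kb flanks in naive regions (horizontal axis, percent) against the share in primed regions (vertical axis, percent) for all coding genes, with grey hexagons shaded by gene number on a log scale and the 9 genes in red. DNMT1, UHRF1 and DNMT3B lie on the upper edge, TET2 on the lower edge at 22.5% naive, and the others between.

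The wider pathway was counted in 6 lists of 83 different genes, of which 62 touched naive and 67 touched primed regions, 51 both and 5 neither. These counts are 74.7% of the 83 genes in the naive and 80.7% in the primed list, against 76.8% in the naive and 81.8% in the primed list for all coding genes. The median body share of the 83 genes was 27.3% in naive and 70.3% in primed regions, against 35.6% in naive and 75.8% in primed regions over all coding genes. The 6 lists hold 11 to 20 genes each, and the count for each list stands against these shares of all coding genes and is not read as a departure from them. The list of maintenance partners was drawn broadly and also holds CTCF, NPM1 and TRDMT1. It touched naive regions in 8 and primed regions in 10 of 11 genes (72.7% in the naive and 90.9% in the primed list). The sliding clamp gene PCNA and the nucleolar chaperone gene NPM1 had 0% in naive and 100% in primed regions, the clamp-binding factor gene PCLAF 32.9% in naive and 100% in primed regions, and the deubiquitinase gene USP7, whose product stabilises DNMT1 and UHRF1, 41.8% in naive and 86.1% in primed regions. The NPM1 flanks did not show the contrast of its body, with 27.5% in naive and 29.1% in primed regions. The PCNA flanks had 32.9% in naive and 97.5% in primed regions.

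Of 15 regulators of imprint and new methylation, 13 touched naive and 11 primed regions. DPPA3, whose product keeps UHRF1 off chromatin in mouse cells, had 0% in naive and 100% in primed regions, and NSD2, a histone H3 lysine methyltransferase gene, 9.03% in naive and 81.9% in primed regions. KHDC3L, needed for maternal imprints, and the arginine methyltransferase gene PRMT6 showed the reverse, 100% in naive and 0% in primed regions. Their flanks did not show this contrast, with 19.6% in naive and 17.5% in primed regions for KHDC3L. For PRMT6 the flanks had 51.7% in naive and 63.2% in primed regions. The DPPA3 flanks had 29.4% in naive and 80% in primed regions. The bodies of DPPA3, KHDC3L and PRMT6 are each shorter than 1 bin of 10 kb, so 0% or 100% there can rest on a single bin. Of 12 methyl-CpG reader genes, 11 touched naive and 10 primed regions. MBD6, ZBTB4 and MBD1 were mostly primed (0%, 2.50% and 20.9% in naive regions, against 100%, 100% and 88.1% in primed regions). MBD4, a reader that is also a thymine glycosylase, had 100% in naive and 0% in primed regions. Its body is also shorter than 1 bin, and its flanks went the other way, with 22.7% in naive and 59.8% in primed regions.

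Of 20 genes of base excision repair and active demethylation, 12 touched naive and 15 primed regions (60% in the naive and 75% in the primed list). The body share was higher in the naive list for 4 of them (20%) and in the primed list for 12 (60%). Over all coding genes these shares were 24.2% and 56.2%, so the count is not read as a departure. Over the 83 genes of the 6 lists it was higher in the naive list for 23 and in the primed list for 47. The stress-response genes GADD45B and GADD45G had 0% in naive and 100% in primed regions. Of 12 genes for TET partners and cofactor supply, 8 touched naive and 9 primed regions. IDH3A, a subunit gene of the mitochondrial enzyme that makes the TET cosubstrate 2-oxoglutarate, had 2.83% in naive and 100% in primed regions, and the succinate dehydrogenase gene SDHA 23.2% in naive and 62.8% in primed regions. Of 14 genes of methyl donor supply, 11 touched naive and 12 primed regions. MAT2A, which makes the methyl donor S-adenosylmethionine, and GNMT, which consumes it, had 0% in naive and 100% in primed regions, and AHCYL1, a relative of the adenosylhomocysteinase gene, 25.7% in naive and 100% in primed regions. The MAT2A and GNMT bodies are also shorter than 1 bin. Their flanks had 30% in naive regions, with 69.8% in primed regions for MAT2A and 57.5% for GNMT. The 5 genes in neither list, named after their values were seen, were CXXC1, GADD45A, NEIL3, FH and IDH1.

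**Figure D5:**
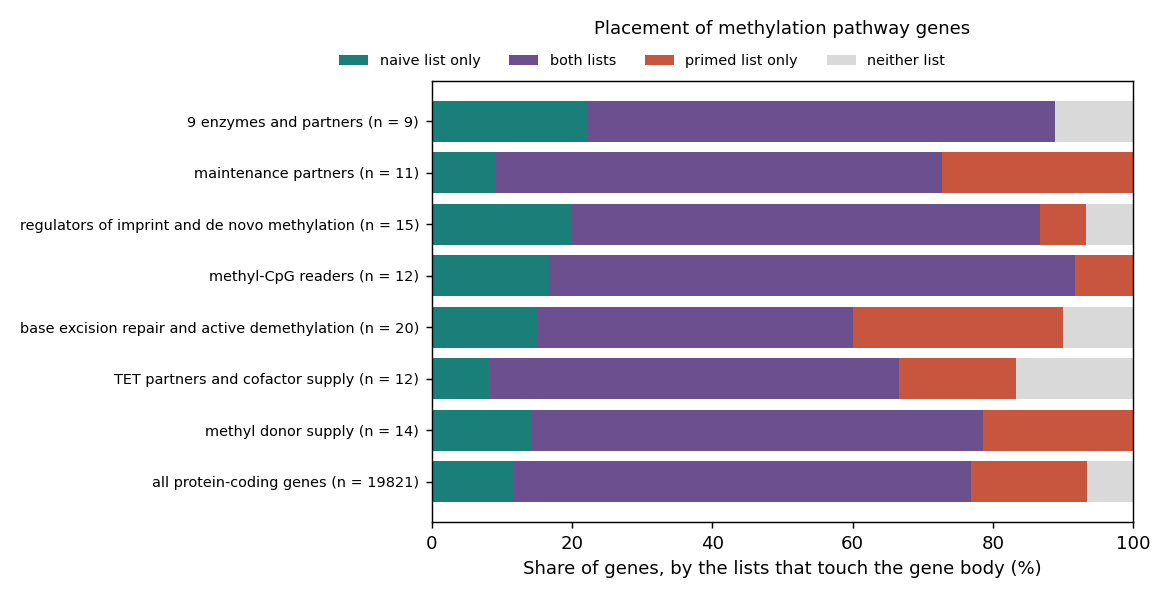
Share of genes, in percent, whose body was touched by the naive list only, by both lists, by the primed list only or by neither, for the 9 genes, the 6 pathway lists and all coding genes. Genes touched by both lists form the largest part in every bar. The 9 genes are the bar without a primed-only part, a placement that is rare among long coding genes (17 of 3350 of 100 kb or more).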

How the data were processed

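Per the labels, each of the 2 deposited lists of regions belongs to the 6 libraries of its state. Its lines hold only the coordinates of regions on hg38. The submitters' processing notes list SICER, BWA and SAMtools 1.10, with no role or order. For calling settings, the pooling of replicates and read depth, nothing was stated in those notes or the labels. A difference between the lists can therefore arise from depth or calling as well as from the cells.

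Covered percent was computed here by base pair over gene bodies, over 200 kb flanks and over promoter windows. A gene counted as touched at any overlap, and a bin of 10 kb as covered when most of it was. Genes came from RefSeq GRCh38.p14 (58419 genes; 679 scaffold genes were left out). Chromosome shares leave out 14 stretches of at least 500 kb that hold no region and no gene. Members and pathway lists were chosen with earlier results of these data known, so no chance test was run. All 9 members are named, with the nearest coding gene on a side, up to 4 genes of each pathway list with the largest difference between the lists, and the most alike gene of each member; a few genes that this rule names are not reported here. Gene body start and end do not follow single transcripts. The interval code was tested on simulated data. Python 3.11.15, numpy 2.4.6, pandas 2.3.3, scipy 1.17.1 and matplotlib 3.10.9 were used.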

Additional observations from a re-analysis of the deposited data

How the results depend on the processing

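No paired analysis was possible because each state has 1 list and no replicate has values of its own. For the same reason no replicate could be left out. A share was taken as moved when it left the 95% exact binomial interval of its 10 kb bins, which covers counting of bins only. Region length and gap treatment moved the members' values most. With at least 50% of the body required, 2 genes counted in the naive and 4 in the primed list and 0 in both, so that the difference of 2 genes turned to -2. With regions of at least 50 kb alone, 0 genes counted in the naive list, 4 in the primed list and 0 in both, a difference of -4, against 11.8% of coding genes in the naive and 50.8% in the primed list. Under that limit the median body share was 0% in both lists (difference 0), and the median flank share 0% in naive and 15.9% in primed regions (-15.9 points). With regions of at least 20 kb, the naive median body share was 17.4% (difference -22.9 points), and flank medians were 15% in naive and 49.8% in primed regions (-34.8). With gaps up to 20 kb merged, the naive median body share was 51.3% (difference -3.97), and flank medians were 35.5% in naive and 78.9% in primed regions (-43.4). With gaps up to 50 kb merged, body medians were 80.7% in naive and 100% in primed regions (-19.3), and flank medians 57.5% in naive and 86.4% in primed regions (-28.9). Body and flanks taken as 1 window gave a primed median of 62.6% and a difference of -33.7. Single genes changed direction in 8 cases, all at small differences or with merged gaps. For TDG flanks, naive minus primed became 8.97 and 11.5 points with gaps of 20 and 50 kb merged, 0.587 with 500 kb flanks and 2.36 with the body included. For DNMT3A flanks it became 10 with regions of at least 20 kb. For TET1 it became -3.34 in the body with gaps of 50 kb merged and 4.90 in 500 kb flanks. For TET3 flanks it became 5 with gaps of 50 kb merged. The cause was not tested. Over all RefSeq genes in place of coding genes, 61.9% touched the naive and 67.9% the primed list.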

Other observations

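Genes with the most similar cover were looked up on other chromosomes, among coding genes with a body 0.5 to 2 times as long, by the mean absolute difference over 6 shares (body and each flank in the naive and the primed list). These are descriptions of position in 2 lists and say nothing of shared function. TET2 was matched most closely by TBC1D15 on chromosome 12, at 0.25 percentage points, with 23.7% of the body in naive and 0% in primed regions. DNMT3B was matched by SCGB2B2 on chromosome 19 at 0.707 points, UHRF1 by TMEM273 on chromosome 10 at 1.78 points, and DNMT1 by CD6 on chromosome 11 at 2.31 points. All 3 of these matches had 100% of the body in primed regions. DNMT3A was nearest to YEATS2 on chromosome 3 (2.69 points), TET3 to LIPC on chromosome 15 (2.85 points) and TET1 to ARHGAP29 on chromosome 1 (4.20 points). The farthest nearest matches were those of DNMT3L, ATAT1 on chromosome 6 at 4.42 points, and TDG, BRK1 on chromosome 3 at 4.80 points. ATAT1 had 0% of its body in naive and 15.7% in primed regions, so the pair differ in the primed list. BRK1 had 62.4% in naive and 0% in primed regions. The median over all candidates was between 23.4 and 40.8 points.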
